A study of Mus musculus with 12 samples.

Results

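The vestibule, the part of the inner ear that senses gravity and head movement, was compared between newborn mice lacking and mice keeping an unmodified copy of Gfi1. The comparison used 6 of the 12 libraries of the series, 3 from heterozygotes (Gfi1Cre/+;RiboTagHA/HA) and 3 from mutants (Gfi1Cre/Cre;RiboTagHA/HA), all taken at P0-P1. Mice of both genotypes were homozygous for RiboTag, an allele that yields an HA-tagged ribosomal protein in cells that have had Cre and in their descendants. An antibody to HA pulled the tagged ribosomes down, and the RNA bound to them was sequenced. Cre sits in the Gfi1 gene itself, so the mutants carried Cre on both copies. An effect of more Cre and an effect of lacking unmodified Gfi1 cannot be told apart. The labels call the samples enriched hair cells and do not say how many animals made up a library or which part of Gfi1 the Cre replaces. The series describes the triplicates as independent and biological. Genes were included when they had at least 1 CPM (a read count scaled to the library's total) in at least 3 of the 6 vestibular libraries, and 15595 of the 24726 listed genes did.

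GFI1 is a zinc finger protein that represses transcription by bringing histone-modifying complexes to DNA with an AATC core. In hair cells it acts downstream of the transcription factors ATOH1 and POU4F3, and in blood it is needed for the making of neutrophils. Vestibular hair cells come in types I and II, which differ in shape, in the nerve ending that contacts them and in the calcium-binding proteins they hold, and all carry a bundle of stereocilia with a true cilium, the kinocilium, beside it.

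The libraries held 18951026 to 29370267 reads, so that 1 read was worth 0.0340 to 0.0528 CPM. The replicate 1 libraries of both genotypes stood apart from the other 4. Reads outside the listed genes made up 0.684% and 0.729% of them, against 0.119% to 0.127% of the others, and 1511 genes annotated as antisense summed to 4203 and 4156 CPM in them, against 1094 to 1283 CPM. The first principal component, with 45.5% of the variance, separated replicate 1 from replicates 2 and 3, and the second, with 34.9%, separated the genotypes. The replicate number was a block in the test (limma on log2(CPM + 1), 3 pairs of libraries). Hair cell genes were present in all 6 libraries: Pou4f3 lay between 506 and 888 CPM and Myo7a, a motor of the hair bundle, between 476 and 588 CPM. RNA of other cells was present too, with 20 macrophage genes summing to 11922 to 15523 CPM. In these bulk samples, fewer cells of a type and less RNA per cell cannot be told apart.

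Gfi1 itself (chr5:107716657-107726036, minus strand, build GRCm38) was at 534, 449.8 and 483 CPM in heterozygote replicates 1, 2 and 3. In mutant replicates 1, 2 and 3 it was at 236, 198 and 208 CPM. All values below follow this order. The groups did not overlap, and every mutant library kept some Gfi1 RNA. The mean (± SD, n = 3) went from 489 ± 42.2 to 214 ± 19.8 CPM (log2 fold change -1.19, SE 0.07, adjusted p = 5.1e-08). RNA of a mutant allele that still matches the gene is counted in these values.

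Of the 15595 genes, 3634 (23.3%) were called at an adjusted p under 0.05, 1637 (10.5%) higher and 1997 (12.8%) lower in mutants, and 312 and 186 of them differed at least 2-fold. The 3 mutant libraries lay entirely to one side of the 3 heterozygous libraries in 3483 genes (22.3%). The median log2 fold change of all genes tested was -0.06. Higher genes were 45.0% of those called, but 54.6% with edgeR, which changes both the scaling and the model, and 1900 were higher and 1678 lower with median-of-ratios rescaling alone, so that no majority direction is read from these counts. Without the replicate block 546 genes (3.5%) were called, all of them among the 3634, and without the replicate 1 libraries 3205 were called, 2742 of them shared in the same direction.

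**Figure D1:**
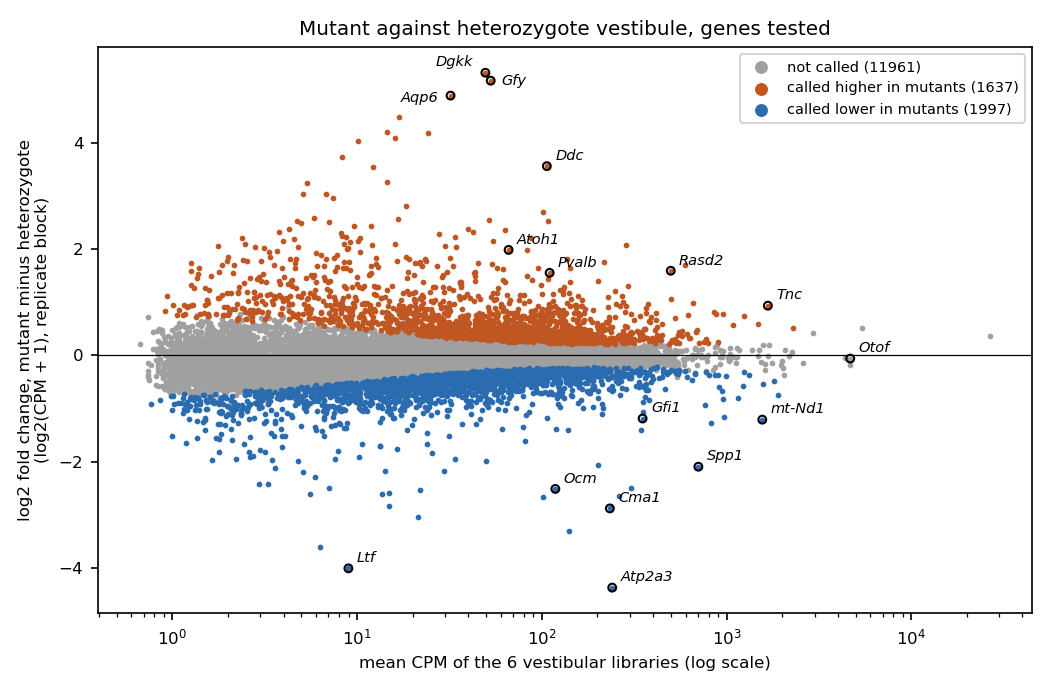
Log2 fold change (mutant minus heterozygote, log2(CPM + 1)) against mean CPM on a log axis for the 15595 vestibular genes tested, with genes called higher in orange, called lower in blue and not called in grey. The largest rises, such as Dgkk and Gfy, sat at low to middle mean levels, while Atp2a3 and Spp1 fell from high heterozygous levels, and Otof lay on the line of no change.

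The largest rises were in genes that were close to silent in heterozygotes. Of the 15 largest, Pla2g2d, Nap1l5, Tdo2, Vsnl1, Cntnap5a and Lhfpl1 were under 1 CPM in every heterozygous library. These genes passed the filter on low values only through the mutants, so they could be called only as rises. Dgkk, a diacylglycerol kinase (chrX:6779306-6948363, plus strand), stood at 0.714, 3.44 and 0.885 CPM in heterozygotes and 81.5, 114 and 96.5 CPM in mutants (log2 fold change 5.33, SE 0.19, adjusted p = 2.7e-10). Gfy, which encodes a Golgi protein of olfactory neurons (chr7:45176349-45179569, minus strand), stood at 1.61, 1.93 and 2.11 CPM in heterozygotes and 124, 96.9 and 90.7 CPM in mutants (log2 fold change 5.18, SE 0.16, adjusted p = 9.2e-11). Aqp6, an aquaporin of intracellular membranes (chr15:99601400-99605477, plus strand), stood at 0.982, 1.55 and 0.919 CPM in heterozygotes and 74.1, 54.5 and 60.3 CPM in mutants (log2 fold change 4.89, SE 0.18, adjusted p = 4.4e-10). In each of these genes the lowest mutant library lay far above the highest heterozygous library.

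The secreted phospholipase Pla2g2d followed at 0.179, 0.881 and 0.545 CPM in heterozygotes and 33.7, 36.2 and 29.5 CPM in mutants (log2 fold change 4.50, SE 0.20). The zinc finger transcription factor St18 went from 1.03, 2.94 and 1.23 CPM to 43.7, 42.7 and 53.6 CPM (log2 fold change 4.18, SE 0.21). The receptor gene Gpr149, whose ligand is not known, went from 0.759, 1.01 and 0.885 CPM to 34, 28.8 and 31.1 CPM (log2 fold change 4.10, SE 0.19). Ddc, the decarboxylase that makes dopamine and serotonin from their precursors, was already measurable in heterozygotes, at 14, 17 and 16.1 CPM, and reached 191, 175 and 226 CPM (log2 fold change 3.57, SE 0.11). The sodium channel gene Scn9a stood at 0.848, 1.93 and 0.545 CPM in heterozygotes and 16.9, 26.2 and 26.7 CPM in mutants (log2 fold change 3.55, SE 0.22). The other 7 of the 15 largest rises were Nap1l5, Tdo2, Lix1, Vsnl1, Cntnap5a, Lhfpl1 and Elavl4, with log2 fold changes from 2.82 in Elavl4, an RNA-binding protein of neurons, to 4.21 in Nap1l5. 

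The largest fall was in Atp2a3 (chr11:72961169-72993044, plus strand), a calcium pump of the endoplasmic reticulum. It stood at 486, 433 and 461 CPM in heterozygotes and 19, 23.8 and 21 CPM in mutants (log2 fold change -4.38, SE 0.10, adjusted p = 1.9e-12), so that the groups were far apart and the libraries of each close together. Ocm (chr5:144019804-144026670, minus strand), the calcium buffer oncomodulin, stood at 209, 206 and 192 CPM in heterozygotes and 33.5, 36 and 34.1 CPM in mutants (log2 fold change -2.52, SE 0.08). Nov, a secreted matrix protein, stood at 25.3, 26 and 26.4 CPM in heterozygotes and 1.9, 5.69 and 3.52 CPM in mutants (log2 fold change -2.60, SE 0.21). The transporter gene Abcc2 stood at 12.9, 14.8 and 10.3 CPM in heterozygotes and 1.48, 0.977 and 1.8 CPM in mutants (log2 fold change -2.50, SE 0.23). Pgam2, a glycolytic enzyme best known from muscle, stood at 27.1, 50.1 and 39.7 CPM in heterozygotes and 4.12, 4.88 and 2.5 CPM in mutants (log2 fold change -3.04, SE 0.19). Cyp11a1, which cleaves the side chain of cholesterol, stood at 41.2, 33.7 and 38.8 CPM in heterozygotes and 4.12, 6.41 and 6.84 CPM in mutants (log2 fold change -2.54, SE 0.17).

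Most of the other large falls were in genes of blood cells. The neutrophil granule gene Ltf stood at 12.7, 24.7 and 16.1 CPM in heterozygotes and 0.0528, 0.17 and 0.164 CPM in mutants. Ngp, another such gene, stood at 9.06, 17.6 and 11.1 CPM in heterozygotes and 0, 0.17 and 0.0819 CPM in mutants. The mutant values of both rest on a handful of reads, and the size of their fall depends on the pseudocount: for Ltf it was -4.01 with 1 CPM, -5.54 with 0.25 CPM and -2.37 with 4 CPM added. The mast cell protease genes Mcpt4, Cma1 and Cpa3 fell by 3.30, 2.88 and 2.65 on the log2 scale, and S100a9, Ighm, Gpr141b and Mrgprb1 by 2.84, 2.68, 2.61 and 2.61. All 30 of these genes kept their direction and their call in each alternative tried, including the fits without the block and without replicate 1. They had been picked for a call, a large fold change and the same sign in all 3 pairs. Their direction was thus bound to hold without the block or without a replicate, and is no separate check.

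**Figure D2:**
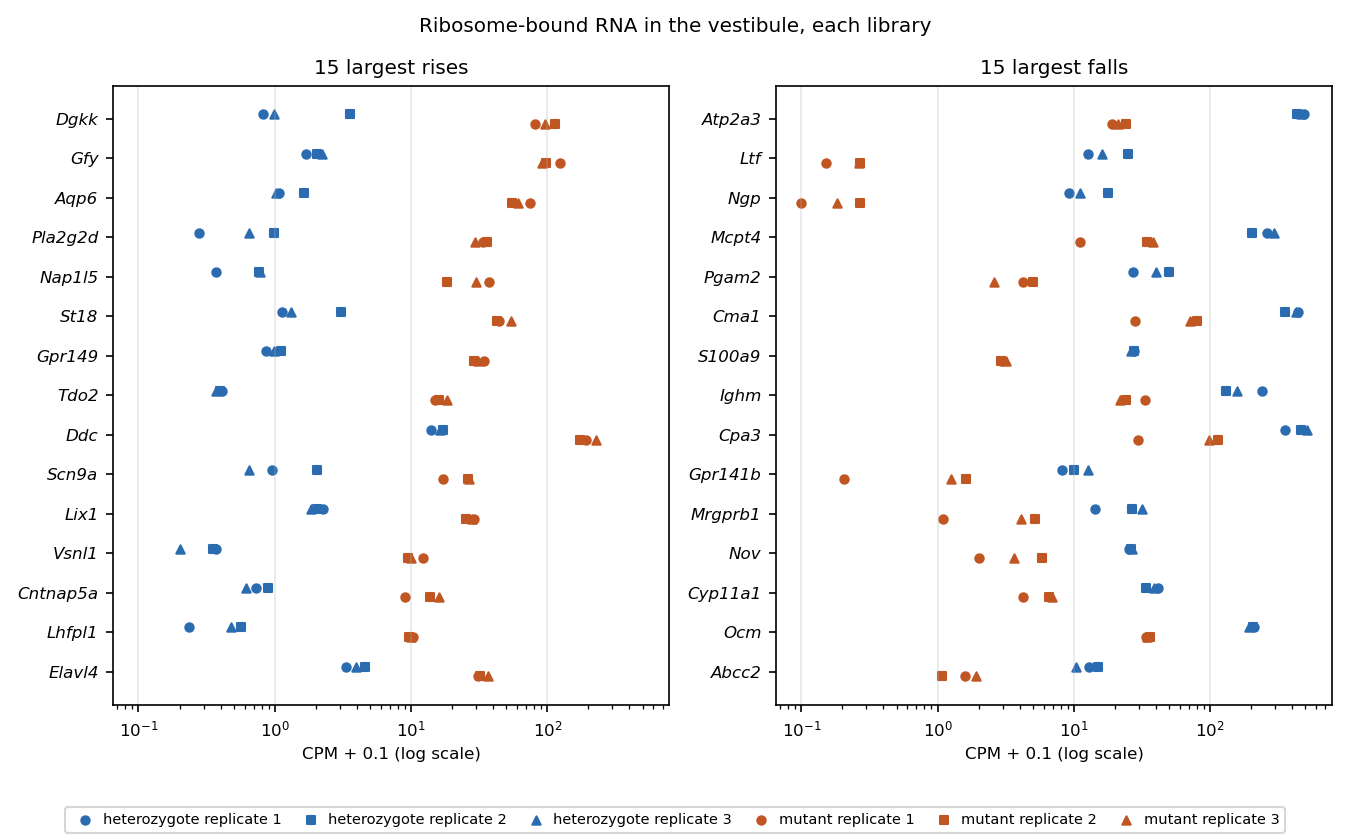
CPM plus 0.1 on a log axis in each vestibular library for the 15 largest rises and the 15 largest falls among genes whose 3 pairs moved the same way, heterozygotes in blue and mutants in orange, with a marker shape for each replicate. The groups are apart in every gene shown; in the mast cell genes Mcpt4, Cma1 and Cpa3 the mutant replicate 1 library lies below the other mutant libraries.

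Promoters are shown for the leading genes because GFI1 binds AATC-containing DNA. RefSeq promoters (GRCm38.p6, from 250 bases before to 50 after the start) were held for 11 of the 15 largest rises and 13 of the 15 largest falls; those of St18, Gpr149, Cntnap5a, Lhfpl1, Ighm and Nov were not matched. AATC on either strand is in capitals (GATT is its reverse complement), and the sequences run 5′ to 3′ on the strand of the gene.
Dgkk, chrX:6779056-6779355, plus strand: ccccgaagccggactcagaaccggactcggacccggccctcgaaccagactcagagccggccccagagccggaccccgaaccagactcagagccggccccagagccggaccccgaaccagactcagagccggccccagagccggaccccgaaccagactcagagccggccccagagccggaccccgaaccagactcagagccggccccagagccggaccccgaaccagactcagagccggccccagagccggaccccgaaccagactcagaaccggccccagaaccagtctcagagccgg
Gfy, chr7:45179548-45179847, minus strand: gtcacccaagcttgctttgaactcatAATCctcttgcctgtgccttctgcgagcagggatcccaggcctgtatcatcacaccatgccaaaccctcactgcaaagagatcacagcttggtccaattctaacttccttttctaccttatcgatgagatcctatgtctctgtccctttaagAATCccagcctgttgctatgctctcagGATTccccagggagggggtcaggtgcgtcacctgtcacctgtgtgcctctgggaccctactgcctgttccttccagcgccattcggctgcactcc
Aqp6, chr15:99600950-99601249, plus strand: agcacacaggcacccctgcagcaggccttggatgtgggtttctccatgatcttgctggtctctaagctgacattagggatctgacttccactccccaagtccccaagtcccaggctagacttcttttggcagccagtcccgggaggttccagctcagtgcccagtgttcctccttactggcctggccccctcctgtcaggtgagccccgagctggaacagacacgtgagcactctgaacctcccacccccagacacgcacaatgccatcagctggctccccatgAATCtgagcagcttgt
Atp2a3, chr11:72960919-72961218, plus strand: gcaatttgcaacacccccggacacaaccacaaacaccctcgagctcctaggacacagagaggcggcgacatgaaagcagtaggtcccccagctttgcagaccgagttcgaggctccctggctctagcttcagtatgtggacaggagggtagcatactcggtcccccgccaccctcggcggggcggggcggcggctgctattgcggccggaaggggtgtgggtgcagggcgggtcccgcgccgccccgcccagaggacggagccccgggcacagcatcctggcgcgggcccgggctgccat
Gfy held 3 matches, Aqp6 1, and the windows of Dgkk and Atp2a3 0. AATC was in 14 of 16 promoters of the rises and 11 of 14 promoters of the falls, some genes having more than 1 start, against 73.1% of all 32851 promoters of that length. The longer form AATCNNNGC, which contains AATC, was in 3 of 16 and 2 of 14, against 10.3% of all. The window of Ocm and 1 of those of Cyp11a1 start over 1000 bases outside the gene bounds used here; without them the falls had AATC in 9 of 12 and the longer form in 1 of 12. So short a motif is common, and these counts are a description of the windows.

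Among hair cell transcription factors, 9 of 12 tested genes rose and 0 fell, with a median of 0.41. Over all genes tested, 10.5% were higher and 12.8% lower, and the median was -0.06. These shares apply to every group count below, and a count near them is not read as a change of the group. Atoh1, the factor that commits cells to the hair cell fate, stood at 31.8, 17.5 and 28.9 CPM in heterozygotes and 138, 77.5 and 103 CPM in mutants (log2 fold change 1.99, SE 0.10, adjusted p = 8.5e-09), with the groups apart. Lhx3, a LIM homeodomain factor, stood at 219, 123 and 129.8 CPM in heterozygotes and 439, 246 and 215 CPM in mutants (log2 fold change 0.91, SE 0.08, adjusted p = 2.4e-06). Every mutant library was above the heterozygote of its own number, but the ranges overlapped with both replicate 1 libraries high. Nhlh1 stood at 87.8, 81.2 and 75.1 CPM in heterozygotes and 147, 152 and 128 CPM in mutants (log2 fold change 0.80, SE 0.08). Barhl1 stood at 102, 65.5 and 64.5 CPM in heterozygotes and 193, 114 and 98.4 CPM in mutants (log2 fold change 0.77, SE 0.09), again with overlap across replicates. Eya1, Rfx3, Pou4f3 and Tbx2 rose by 0.30 to 0.48 on the log2 scale, while Gata3 (-0.64), Rfx1 (0.23) and Ikzf2 (0.34) did not pass the test. Every mutant library was below every heterozygous one in Gata3. It was lower at an unadjusted p under 0.05 by limma with and without the block. Counts of higher and lower genes were 2 and 0 without the block and 9 and 0 without the replicate 1 libraries.

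Genes that mark the vestibular hair cell types moved in different directions. Of the type I markers, Ocm fell. Spp1, the secreted phosphoprotein osteopontin, stood at 1347, 1035 and 1042 CPM in heterozygotes and 289, 213 and 298 CPM in mutants (log2 fold change -2.10, SE 0.09, adjusted p = 2.1e-09). Adam11 stood at 362, 282 and 263 CPM in heterozygotes and 363, 234 and 226 CPM in mutants and did not pass the test (adjusted p = 0.16; 0.025 without replicate 1). Of the type II markers, the annexin Anxa4 stood at 202, 212 and 194 CPM in heterozygotes and 345, 381 and 350.4 CPM in mutants (log2 fold change 0.82, SE 0.07, adjusted p = 2.4e-06). Sox2, a transcription factor that is also active in supporting cells, stood at 140.0, 127 and 155 CPM in heterozygotes and 236, 179 and 183 CPM in mutants (log2 fold change 0.49, SE 0.09). The groups did not overlap in either gene. Mapt rose by 0.72. Calb2, the calcium buffer calretinin, was the exception, at 134, 103 and 93.2 CPM in heterozygotes and 105, 75 and 83.8 CPM in mutants (log2 fold change -0.32, SE 0.09, adjusted p = 0.017). In all, type I genes had 0 rises and 2 falls of 3, and type II genes 3 rises and 1 fall of 4, and of these Ocm, Spp1 and Anxa4 were also called without the block.

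Genes best known from cochlear hair cells were measured as well. Of 7 outer hair cell genes, Ocm, Sri, Bcl11b and Strip2 fell and Neurod6 rose. Sri, which encodes the calcium-binding protein sorcin, stood at 165, 136 and 145 CPM in heterozygotes and 72.5, 58.6 and 63.2 CPM in mutants (log2 fold change -1.19, SE 0.08). Of 6 inner hair cell genes, Slc7a14 and Tbx2 rose and Fgf8 and Dnajc5b fell, and Otof and Slc17a8 did not pass the test. Without the block 1 outer hair cell gene was called higher and 2 lower, and 1 inner hair cell gene higher and 0 lower (2 lower at an unadjusted p under 0.05, limma).

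**Figure D3:**
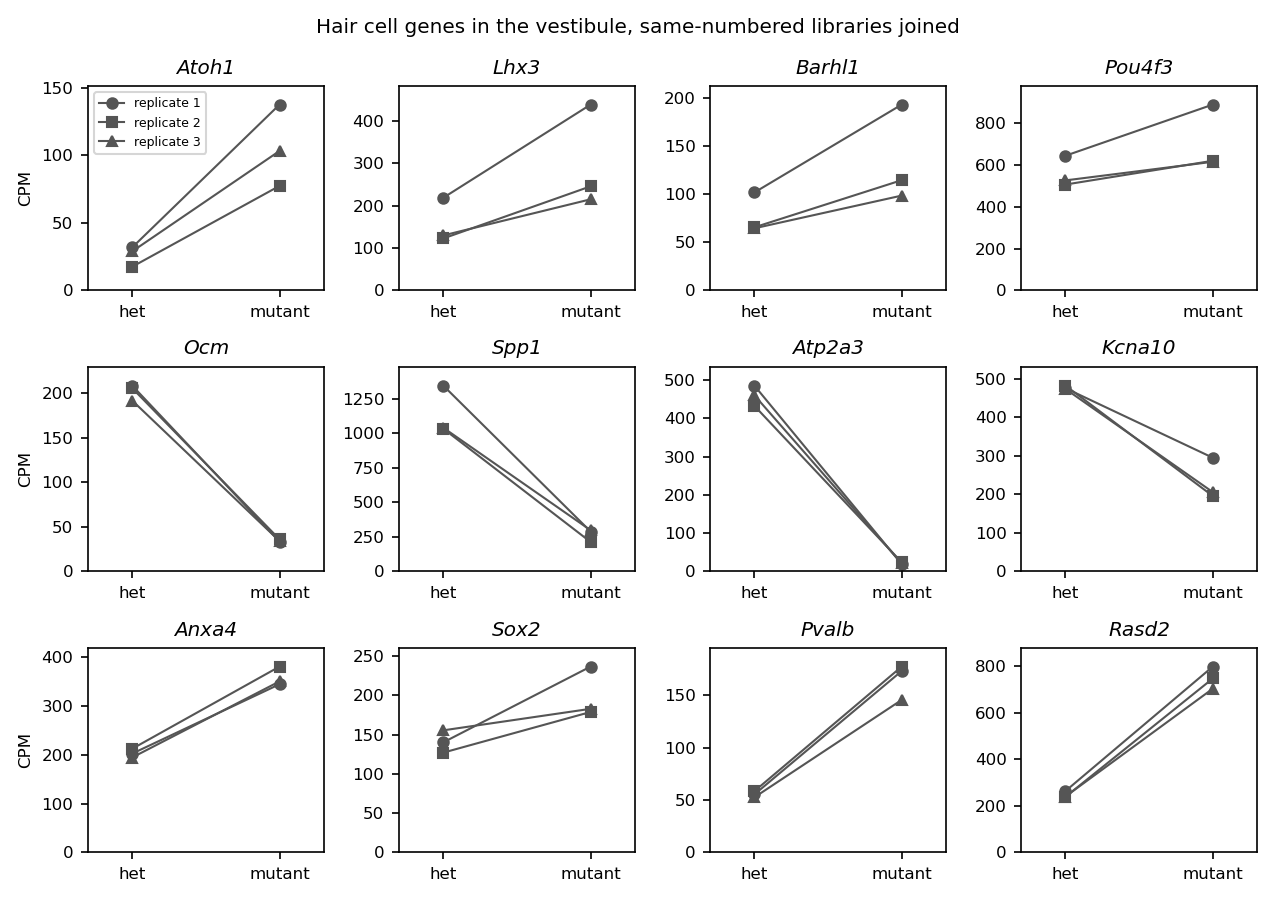
CPM in heterozygous and mutant vestibular libraries for 12 hair cell genes, each line joining the libraries of the same replicate number, with y axes starting at 0 and scaled per gene. All 3 lines rise in Atoh1, Lhx3, Barhl1, Pou4f3, Anxa4, Sox2, Pvalb and Rasd2 and fall in Ocm, Spp1, Atp2a3 and Kcna10, and in Lhx3 and Barhl1 the replicate 1 line lies above the others.

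Calcium handling genes were split, with 7 of 23 higher and 5 lower and a median of 0.19. Without the block 3 were called higher and 2 lower, and without replicate 1 the counts were 7 and 4. Among the buffers, Ocm fell, and Calb1 (0.19) did not pass the test. Parvalbumin (Pvalb) stood at 55.3, 58.3 and 52.5 CPM in heterozygotes and 173, 177 and 145 CPM in mutants (log2 fold change 1.56, SE 0.08, adjusted p = 1.7e-08). Among the pumps, Atp2a3 fell while Atp2a2, Atp2b3 and Atp2b4 rose by 0.26, 0.70 and 0.52. Among the release channels and sensors, the IP3 receptor gene Itpr3 stood at 49, 49 and 50.7 CPM in heterozygotes and 123, 95 and 114 CPM in mutants (log2 fold change 1.13, SE 0.09, adjusted p = 1.2e-06). Itpr1 and Itpr2 fell by 0.34 and 0.39. The calcium-sensing receptor gene Casr stood at 5.49, 9.31 and 7.49 CPM in heterozygotes and 26.1, 35.9 and 26.1 CPM in mutants (log2 fold change 1.86, SE 0.15). The groups were apart in Pvalb, Itpr3 and Casr.

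Genes of the hair bundle and of mechanotransduction gave 12 rises and 9 falls of 40, with a median of 0.06 (-0.03 without the replicate 1 libraries). The summed level of the 40 genes was 10568, 11169.7 and 11769 CPM in heterozygotes and 12314, 11982 and 12331 CPM in mutants. Among Usher syndrome genes, Pcdh15, Clrn1, Ush1g and Adgrv1 rose and Ush1c fell. Pcdh15, which forms the lower end of the tip link, stood at 101, 145 and 162 CPM in heterozygotes and 191, 259.7 and 284 CPM in mutants (log2 fold change 0.85, SE 0.07, adjusted p = 2e-06). Clrn1 stood at 67.1, 89.3 and 95.9 CPM in heterozygotes and 134, 153 and 150.3 CPM in mutants (log2 fold change 0.80, SE 0.09). Myo3a, a myosin of the stereocilia tips, went the other way at 14.4, 21.5 and 22.2 CPM in heterozygotes and 8.28, 5.65 and 10.2 CPM in mutants (log2 fold change -1.18, SE 0.19, adjusted p = 0.00055). So did Grxcr2 at 439, 382 and 374 CPM in heterozygotes and 347, 247 and 215 CPM in mutants (log2 fold change -0.59, SE 0.09). The transduction channel gene Tmc2 stood at 69.6, 82.4 and 83.9 CPM in heterozygotes and 54.9, 52.7 and 53.4 CPM in mutants (log2 fold change -0.54, SE 0.10). The groups did not overlap in these genes. Tmc1 (39.5, 46.3 and 55.7 and 45.2, 29.4 and 46.2 CPM), Myo7a, Espn, Cdh23 and 15 others did not pass the test. Only Clrn1 of the 21 called genes was also called without the block; without replicate 1, 12 were higher and 10 lower.

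At the hair cell synapse and among its channels, 6 of 18 genes rose and 2 fell (median 0.12), with 3 and 1 called without the block and 6 and 3 without replicate 1. Rasd2, a small GTPase of the Ras family, stood at 264, 239 and 240.3 CPM in heterozygotes and 799, 748 and 704 CPM in mutants (log2 fold change 1.59, SE 0.07, adjusted p = 2.9e-09), the largest difference of the group. The ribbon scaffold gene Bsn stood at 22.2, 19.6 and 24.1 CPM in heterozygotes and 41.5, 38.8 and 42.4 CPM in mutants (log2 fold change 0.87, SE 0.11). Rims2, Cacnb2 and Pclo rose by 0.77, 0.63 and 0.46. The potassium channel gene Kcna10 stood at 475, 482 and 473 CPM in heterozygotes and 295, 196 and 206 CPM in mutants (log2 fold change -1.06, SE 0.10, adjusted p = 4.6e-06), with every mutant library below every heterozygous one. Chrna9, a subunit of the receptor through which efferent nerves act on hair cells, stood at 69, 76.5 and 74.7 CPM in heterozygotes and 50.8, 51.1 and 50.4 CPM in mutants (log2 fold change -0.52, SE 0.09). Otof, needed for transmitter release from hair cells, was at 4709, 4582 and 5021 CPM in heterozygotes and 4709.6, 4225 and 4811 CPM in mutants and did not pass the test (adjusted p = 0.73).

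Of 20 genes of the motile cilium, 10 rose and 1 fell (median 0.22). The transcription factor gene Foxj1 stood at 362, 245 and 278 CPM in heterozygotes and 608, 355 and 322 CPM in mutants (log2 fold change 0.50, SE 0.09, adjusted p = 0.0015), with overlapping groups. The radial spoke gene Rsph4a stood at 67, 87.6 and 104 CPM in heterozygotes and 145, 158 and 146 CPM in mutants (log2 fold change 0.81, SE 0.10). Without the block only Rsph4a was called, and without the replicate 1 libraries 9 were higher and 1 lower. In the group of otolithic membrane genes, 1 of 9 rose and 2 fell, beside 10.5% higher and 12.8% lower over all genes tested. Without the replicate 1 libraries 4 of them fell. Without the block limma called 1 higher and 0 lower, with 1 lower at an unadjusted p under 0.05. Otol1, an otoconial collagen-like protein, stood at 49.7, 106 and 88 CPM in heterozygotes and 169.8, 208 and 237 CPM in mutants (log2 fold change 1.38, SE 0.12, adjusted p = 1.2e-06). Oc90, the main protein of otoconia, stood at 604, 1204 and 1544 CPM in heterozygotes and 478, 851 and 812 CPM in mutants (log2 fold change -0.59, SE 0.10), with overlapping groups.

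Genes that are better known from neurons were higher in several groups. Of 25 genes for neuronal cytoskeleton and RNA-binding proteins, 15 rose and 2 fell (median 0.73). Uchl1, a ubiquitin hydrolase abundant in neurons, stood at 37.6, 33.6 and 27.5 CPM in heterozygotes and 158, 129 and 115 CPM in mutants (log2 fold change 1.99, SE 0.09, adjusted p = 2.4e-09). Map1b, a microtubule-associated protein, stood at 133, 188 and 193 CPM in heterozygotes and 335, 353 and 423 CPM in mutants (log2 fold change 1.12, SE 0.09). Dcx, a microtubule protein of migrating neurons, was scattered among heterozygotes, at 9.82, 38.1 and 4.53 CPM, and stood at 50.4, 89.4 and 62.9 CPM in mutants (log2 fold change 2.33, SE 0.28), with the groups apart. The neurofilament genes Nefm and Nefl rose by 0.74 and 0.70. Of their exon bases, 19.2% in Nefm and 33% in Nefl are shared with another annotated gene, so the counts of both are uncertain. Nova1 and Dpysl3 fell. Counts of higher and lower genes were 9 and 0 without the block and 12 and 2 without the replicate 1 libraries.

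Of the 34 neuronal transcription factors found in the files, 17 passed the filter on low values, and 9 of them rose and 2 fell. A gene near silence in heterozygotes passed that filter only where mutants were high. St18 led, and Pou4f2, a POU factor of retinal ganglion cells, stood at 0.804, 1.22 and 0.375 CPM in heterozygotes and 11.8, 7.64 and 8.03 CPM in mutants (log2 fold change 2.50, SE 0.24, adjusted p = 4e-06). Prrxl1, a homeodomain factor of sensory neurons, stood at 0.0446, 1.05 and 0.409 CPM in heterozygotes and 6.86, 4.2 and 4.22 CPM in mutants (log2 fold change 2.05, SE 0.29). Myt1l, a zinc finger factor of the same family as St18, stood at 1.34, 4.07 and 2.62 CPM in heterozygotes and 6.91, 11.8 and 8.03 CPM in mutants (log2 fold change 1.47, SE 0.20). The groups were apart in all 3. Pou3f3 stood at 42.9, 59.8 and 53.1 CPM in heterozygotes and 23.5, 40.3 and 30.5 CPM in mutants and Isl1 fell by 0.37. Counts of higher and lower genes were 5 and 0 without the block and 8 and 2 without the replicate 1 libraries.

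Vesicle and secretion genes moved in both directions, 10 of 21 higher and 6 lower (median 0.44). The vesicular glutamate transporter gene Slc17a6 stood at 74.1, 110.2 and 115 CPM in heterozygotes and 331, 351 and 319 CPM in mutants (log2 fold change 1.76, SE 0.11, adjusted p = 5.1e-08). That of hair cells, Slc17a8, was at 961, 1198 and 1326 CPM in heterozygotes and 1057, 1169.6 and 1153 CPM in mutants and did not pass the test (adjusted p = 0.82). Synpr, a vesicle membrane protein, stood at 25.2, 17 and 16.3 CPM in heterozygotes and 85.6, 86.7 and 94.2 CPM in mutants (log2 fold change 2.16, SE 0.13, adjusted p = 5.4e-08). Snap25, part of the fusion machinery, stood at 36.3, 30.2 and 38 CPM in heterozygotes and 79.2, 73.1 and 88.5 CPM in mutants (log2 fold change 1.18, SE 0.09), and Chga, a granule protein, at 94.7, 90.7 and 90.6 CPM in heterozygotes and 202, 208 and 173 CPM in mutants (log2 fold change 1.07, SE 0.08). Against these, the granule gene Scg2 stood at 45.4, 47.4 and 48.9 CPM in heterozygotes and 17.4, 13.3 and 17.3 CPM in mutants (log2 fold change -1.52, SE 0.13, adjusted p = 1.2e-06). The calcium sensor gene Syt1 stood at 39.1, 45.5 and 43.6 CPM in heterozygotes and 18.5, 15.8 and 22.5 CPM in mutants (log2 fold change -1.15, SE 0.13). The groups did not overlap in any of these called genes. Counts of higher and lower genes were 8 and 2 without the block and 10 and 6 without the replicate 1 libraries.

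Of 10 sodium channel genes, Scn9a, Scn11a, Scn3a and Scn8a rose and the beta subunit gene Scn3b fell (2 and 1 without the block, 3 and 1 without replicate 1). Scn11a stood at 9.33, 9.6 and 11.3 CPM in heterozygotes and 30.7, 36.4 and 36.9 CPM in mutants (log2 fold change 1.68, SE 0.14, adjusted p = 9.1e-07). Scn3b stood at 139.7, 132 and 134 CPM in heterozygotes and 83.6, 80.9 and 78.3 CPM in mutants (log2 fold change -0.73, SE 0.08). Of 15 genes of olfactory neurons, 8 passed the filter on low values: Gfy, Rtp1 and Ric8b rose and Ano2 fell (2 and 1 without the block, and likewise without replicate 1). Rtp1, which carries odorant receptors to the cell surface, stood at 28, 34.1 and 31.9 CPM in heterozygotes and 187, 178 and 189 CPM in mutants (log2 fold change 2.53, SE 0.09, adjusted p = 3.4e-10). Defining genes of mature olfactory neurons such as Omp, Cnga2 and Cngb1 did not reach the filter.

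Enzymes of amine and tryptophan metabolism included 3 rises and 3 falls of 7, with 2 and 1 called without the block and 3 and 2 by edgeR and by DESeq2. Beside Ddc, Tdo2, which breaks down tryptophan, stood at 0.312, 0.294 and 0.272 CPM in heterozygotes and 14.8, 15.8 and 18.3 CPM in mutants (log2 fold change 3.74, SE 0.21). Maoa rose by 0.76. Maob, the other monoamine oxidase, stood at 13.4, 19.5 and 17.4 CPM in heterozygotes and 3.11, 3.91 and 4.1 CPM in mutants (log2 fold change -1.91, SE 0.18, adjusted p = 3.5e-06). Slc18a2, a vesicular amine transporter, stood at 7.59, 9.27 and 12.6 CPM in heterozygotes and 1.69, 4.59 and 3.07 CPM in mutants (log2 fold change -1.43, SE 0.22). Tph1, which starts serotonin synthesis, stood at 2.14, 4.15 and 6.57 CPM in heterozygotes and 1.74, 2.08 and 1.56 CPM in mutants (log2 fold change -0.84, SE 0.27). Slc18a2 and Tph1 are also expressed by mast cells, whose genes are given below.

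In the Notch pathway, through which neighbouring cells in the sensory epithelium take different fates, 7 of 20 genes rose and 6 fell. Most ligand genes were among the rises. Jag2 stood at 266, 224 and 278 CPM in heterozygotes and 548, 437 and 441 CPM in mutants (log2 fold change 0.89, SE 0.08, adjusted p = 4.1e-06). Dll1 stood at 83.4, 53.4 and 72.8 CPM in heterozygotes and 171, 94.8 and 98.6 CPM in mutants (log2 fold change 0.76, SE 0.10), and Dll3 and Dll4 rose by 0.70 and 0.54, while Jag1 (-0.28) did not pass the test. The receptor genes Notch2 and Notch3 fell by 0.27 and 0.42. Of the genes of the Hes and Hey families, Hey1 and Hes6 rose by 0.84 and 0.78, and Hes1 fell. Heyl stood at 76.5, 76.8 and 79.6 CPM in heterozygotes and 44.7, 41.1 and 40.3 CPM in mutants (log2 fold change -0.87, SE 0.09, adjusted p = 1.5e-05). Without the block only Jag2 and Heyl were called, and edgeR with the block called 7 higher and 4 lower.

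Of 19 listed cell cycle genes, 0 rose and 9 fell (median -0.34), and all 9 were between -0.52 and -0.36. Cell cycle genes outside the list were called in both directions, among them Cdc25b (log2 fold change 0.94) and Ccnd2 (-1.01). The replication licensing gene Mcm5 stood at 126, 136 and 109 CPM in heterozygotes and 89.7, 87.1 and 80.4 CPM in mutants (log2 fold change -0.52, SE 0.08, adjusted p = 0.00047). Without the block limma called 0 of the 19, with 8 lower at an unadjusted p under 0.05, and edgeR with the block called 8. Of 19 genes of the p53 response and apoptosis, 4 rose and 2 fell. Without the block limma called 2 higher and 0 lower (1 lower at an unadjusted p under 0.05), 3 and 2 were called without replicate 1, and edgeR with the block called 4 and 1. Hrk, a promoter of cell death of the BH3-only family, stood at 8.75, 11.9 and 9.74 CPM in heterozygotes and 30.6, 33 and 28.1 CPM in mutants (log2 fold change 1.51, SE 0.14, adjusted p = 3.8e-06). Cdkn1a, an inhibitor of the cell cycle, stood at 64.8, 67.2 and 62.6 CPM in heterozygotes and 99.5, 116 and 109 CPM in mutants (log2 fold change 0.73, SE 0.09). Bax, Bbc3, Casp9 and Apaf1 did not pass the test. Of 25 stress response genes, 5 rose and 3 fell. Without the block limma called 2 higher and 0 lower (3 lower at an unadjusted p under 0.05), and without replicate 1 the counts were 5 and 4. The falls of both groups made up a smaller share than the 12.8% of all genes tested that were lower. Psat1, of serine synthesis, stood at 328, 346 and 299 CPM in heterozygotes and 722, 658 and 662 CPM in mutants (log2 fold change 1.07, SE 0.08, adjusted p = 2.9e-07). Mthfd2, of mitochondrial folate metabolism, stood at 27.8, 24.6 and 25.3 CPM in heterozygotes and 55.5, 45.5 and 44.2 CPM in mutants (log2 fold change 0.87, SE 0.11). The chaperone gene Hspa5 fell by 0.32. Of 11 genes known to be repressed by GFI1 in blood cells, 2 rose, one of them Cdkn1a, and Egr1, Egr2 and Csf1 fell. Limma without the block called 1 higher and 0 lower (3 lower at an unadjusted p under 0.05), and without replicate 1 the counts were 1 and 4. Id2 stood at 29.8, 28.6 and 22.9 CPM in heterozygotes and 22.5, 30 and 21.6 CPM in mutants and did not pass the test (adjusted p = 0.50), nor did Spi1, Id1 or Meis1.

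**Figure D4:**
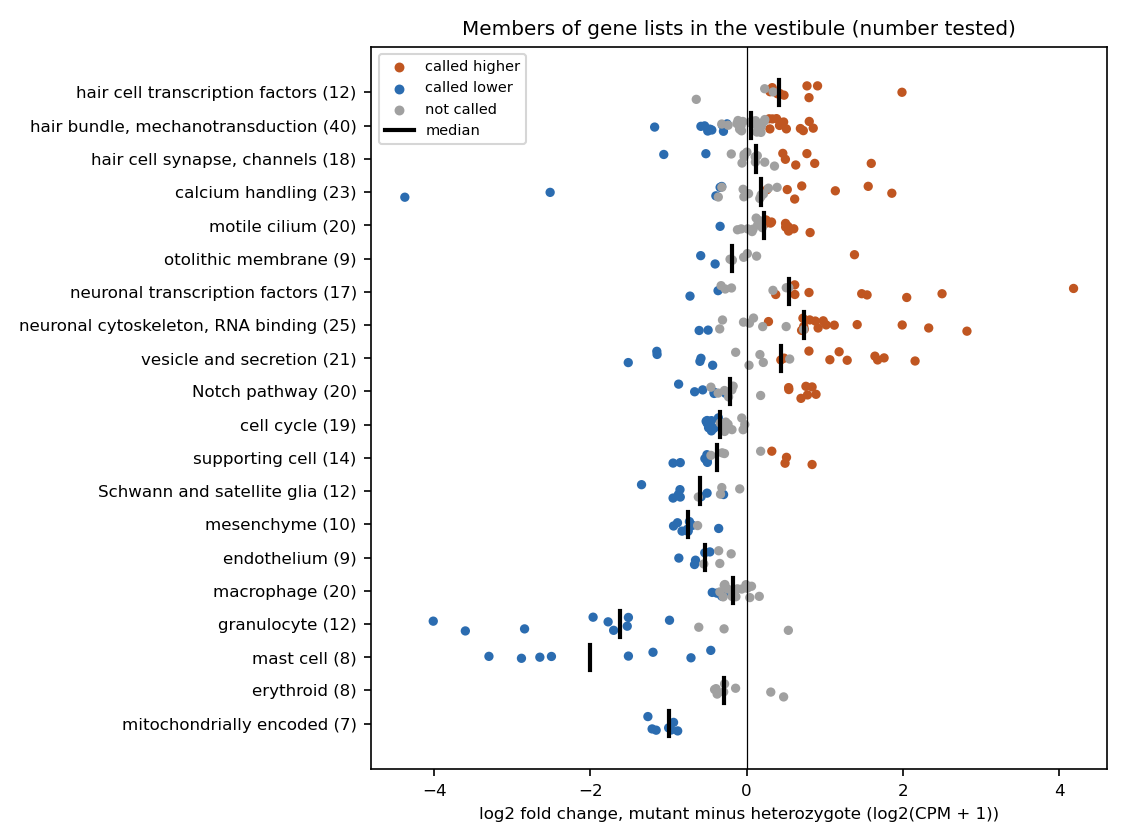
Log2 fold change (mutant minus heterozygote, log2(CPM + 1)) of each tested member of 20 gene groups in the vestibule, coloured by call, with the median of each group as a black bar and the number tested in brackets. Neuronal groups and hair cell transcription factors have medians above 0, and mast cell, granulocyte, mitochondrial, mesenchymal and glial genes have medians below 0.

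Genes that mark other cells were lower in several groups. Of 8 mast cell genes tested, 8 fell (median -2.01). The summed level of the 10 found, 8 of them tested, was 1839, 1715 and 1969 CPM in heterozygotes and 256, 485 and 448 CPM in mutants. The protease genes led. Cma1 stood at 441, 356 and 426 CPM in heterozygotes and 28.1, 79.5 and 70.9 CPM in mutants, and Tpsb2 at 617, 449 and 487 CPM in heterozygotes and 62.7, 122 and 94.8 CPM in mutants. Cpa3 stood at 356, 459.9 and 511 CPM in heterozygotes and 29.6, 113 and 97.2 CPM in mutants, and Mcpt4 at 259, 203 and 292 CPM in heterozygotes and 11, 34 and 38 CPM in mutants. Every mutant library was below every heterozygous one in these genes, and mutant replicate 1 was the lowest. Without the replicate 1 libraries Cpa3, at -2.65 with them, stood at -2.20, and 5 of the 8 were called without the block. Kit, also expressed by melanocytes, fell by 0.46.

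Of 12 granulocyte genes, 9 fell (median -1.62) and Mpo, Mmp9 and Prtn3 did not pass the test. Ltf, Ngp, Retnlg and Camp were under 1 CPM in every mutant library and passed the filter on low values only through the heterozygotes. They could thus enter the count only as falls. The summed level of the 14 listed, 12 of them tested, overlapped between the groups. It was 1354, 929 and 627 CPM in heterozygotes and 857, 427 and 859 CPM in mutants. S100a9 stood at 27.5, 27.3 and 25.9 CPM in heterozygotes and 2.8, 2.8 and 3.07 CPM in mutants (log2 fold change -2.84, SE 0.17, adjusted p = 4.2e-08). Mpo, an early granule enzyme, was high in heterozygote replicate 1 alone, at 48.9, 1.17 and 0.579 CPM in heterozygotes and 2.85, 1.66 and 3.69 CPM in mutants. Retnlg stood at 1.47, 3.82 and 4.43 CPM in heterozygotes and 0, 0.0849 and 0 CPM in mutants and Camp at 1.65, 2.1 and 2.11 CPM in heterozygotes and 0.0528, 0.0425 and 0 CPM in mutants, at or near 0 in mutants. Without the block 7 of the 12 were called lower. Prss34, of basophils, fell as well (-1.79). Ighm, the heavy chain of IgM, stood at 241, 132 and 157 CPM in heterozygotes and 32.9, 24.2 and 21.7 CPM in mutants (log2 fold change -2.68, SE 0.10, adjusted p = 4.4e-10). Of 8 lymphoid genes Cd79a and Igll1 were called lower, and 5 without the replicate 1 libraries; without the block limma called 0, with 2 lower at an unadjusted p under 0.05.

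Macrophage genes differed less. Of 20, Aif1, Adgre1, Cx3cr1 and Lyve1 were called lower, by 0.29 to 0.44, with 0 called by edgeR (4 lower at an unadjusted p under 0.05), 2 by DESeq2 and 0 by limma without the block (2 at an unadjusted p under 0.05). The summed level of the 20 was 15523, 14023 and 12833 CPM in heterozygotes and 11922, 14335 and 12035 CPM in mutants, with overlap. Mrc1 stood at 2384, 2976 and 2789 CPM in heterozygotes and 1979.6, 2893 and 2595 CPM in mutants and C1qa at 992, 587 and 522 CPM in heterozygotes and 853, 681 and 543 CPM in mutants. Of 8 erythroid genes limma, edgeR and DESeq2 each called 0, with 0 at an unadjusted p under 0.05; Hbb-bs, a globin gene, stood at 3593, 1293 and 1737 CPM in heterozygotes and 842, 3580.4 and 1219 CPM in mutants.

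Genes of connective tissue, glia and vessels were lower. Of 10 mesenchymal genes, 9 fell (median -0.75), with a summed level of 1954, 2572 and 2439.8 CPM in heterozygotes and 1082, 1478 and 1481 CPM in mutants. The collagen gene Col1a2 stood at 993, 1373 and 1314 CPM in heterozygotes and 516, 797 and 778 CPM in mutants (log2 fold change -0.83, SE 0.08). Col3a1 stood at 469.9, 469 and 428 CPM in heterozygotes and 257, 235 and 246 CPM in mutants (log2 fold change -0.89, SE 0.08). Of 12 genes of Schwann and satellite glia, 8 fell; the myelin gene Mbp stood at 52.8, 51.1 and 51.6 CPM in heterozygotes and 37, 29.3 and 37.2 CPM in mutants (log2 fold change -0.58, SE 0.11), with the groups apart. Of 9 endothelial genes 5 fell and of 6 melanocyte genes 3. Without the block 2 mesenchymal and 1 glial gene were called by limma and 0 endothelial or melanocyte genes, of which 3 and 3 were lower at an unadjusted p under 0.05; edgeR with the block called 3 and 3. Supporting cell genes were mixed, 4 of 14 higher (Hey1, Sox9, Sox2 and Prox1) and 6 lower (among them Fabp7 and Gjb2), as were those of the nonsensory vestibular epithelium, 1 of 7 higher and 5 lower (1 and 3 without replicate 1). Without the block limma called 0 of either group, with 3 higher and 5 lower supporting cell genes at an unadjusted p under 0.05, and edgeR with the block called 4 and 6. Of 8 ganglion neuron genes, Nefl and Nefm rose and Sncg, Ntrk2 and Isl1 fell; the ganglion markers Avil and Prph did not reach the filter on low values. The part of other cells in the differences of hair cell and neuronal genes was not tested.

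All 7 tested mitochondrially encoded transcripts fell (median -1.0). The summed level of the 9 found, 7 of them tested, ranged widely within each genotype. It was 7137, 8481 and 2678 CPM in heterozygotes and 2343, 5083 and 1244 CPM in mutants. Each mutant library was below the heterozygote of its number, but the groups overlapped. Without the block limma called 0 of the 7, with 3 lower at an unadjusted p under 0.05, and edgeR with the block called 7. The part of RNA quality in this was not tested. Of 10 immediate early genes, Fos, Junb, Egr1 and Ier2 fell. Arc was called higher with the block but not without it, without replicate 1, or by edgeR or DESeq2. Limma without the block called 0 of the 10, with 1 higher and 2 lower at an unadjusted p under 0.05.

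The called genes with the most reads, not corrected for length, were also taken. On the higher side, Myo6, an actin motor needed by hair cells, stood at 1508, 2036 and 2141 CPM in heterozygotes and 2319, 2829 and 2884 CPM in mutants (log2 fold change 0.51, SE 0.09, adjusted p = 0.0010). Tnc, a matrix protein found around vestibular hair cells, stood at 809, 1265 and 1401 CPM in heterozygotes and 1707, 2541 and 2325 CPM in mutants (log2 fold change 0.94, SE 0.09, adjusted p = 5.3e-06). The ubiquitin ligase gene Nedd4 stood at 1032, 1274 and 1251 CPM in heterozygotes and 1679, 1850.5 and 1848 CPM in mutants (log2 fold change 0.60, SE 0.08). Nefm, Tubb4b and Ctnnb1 completed the 6. On the lower side Col2a1, the collagen of cartilage, stood at 2864, 1969.7 and 2314 CPM in heterozygotes and 1772, 1201 and 1280.2 CPM in mutants (log2 fold change -0.75, SE 0.09, adjusted p = 2.7e-05). Apba1, an adaptor protein, stood at 1847, 1801 and 1920.1 CPM in heterozygotes and 1335, 1252 and 1263 CPM in mutants (log2 fold change -0.53, SE 0.08), and the ubiquitin ligase component Fbxo2 at 1844, 1271 and 1262 CPM in heterozygotes and 1303, 844 and 816 CPM in mutants (log2 fold change -0.57, SE 0.08). Malat1, mt-Nd1 and Dab2 completed the 6 lower genes. The groups overlapped in Fbxo2, Malat1, mt-Nd1 and Dab2, and Dab2 was not called without replicate 1 (adjusted p = 0.11). Of these 12 genes only Nefm was also called without the block.

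The mutant change in the vestibule was set against that in the 6 cochlear libraries (3 per genotype) by an interaction term over the 14674 genes tested in both organs. It called 1955 genes (13.3%), with the vestibular change above the cochlear in 943 (6.43%) and below it in 1012 (6.9%). Vestibular libraries were made with a directional kit from New England Biolabs and cochlear ones with an ultralow-input kit from NuGEN, so organ and kit cannot be told apart. Of 39 hair bundle genes, 28 had a vestibular change called above the cochlear one and 0 below, with medians of 0.07 in the vestibule and -0.72 in the cochlea. The same held for 12 of 19 motile cilium genes, with medians of 0.24 and -0.46, and 11 of 16 genes of the hair cell synapse and channels. Mesenchymal genes differed the other way in 8 of 10, with medians of -0.75 and 0.04, and mitochondrial transcripts in 7 of 7. Over all genes in both tests the medians were -0.06 and 0.05.

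Gpr149 had the largest positive difference (4.23, SE 0.30, adjusted p = 2e-07). In the cochlea it stood at 2.03, 2.66 and 1.5 CPM in heterozygotes and 1.62, 2.71 and 1.16 CPM in mutants. Pvalb rose in the vestibule and stood at 84.5, 81 and 66.1 CPM in heterozygous and 43, 35.2 and 44.8 CPM in mutant cochleae, a difference between organs of 2.45 (SE 0.16, adjusted p = 9.9e-08). Rasd2 fell in the cochlea, from 362, 325 and 327 CPM to 158, 211 and 191 CPM, with a difference of 2.46 (SE 0.14). Nov, which fell in the vestibule, stood at 32, 23.8 and 40.4 CPM and 33.9, 23.6 and 36.4 CPM in the cochlea (-2.57, SE 0.26). Each of these 4 differences was also called without the block and without the vestibular replicate 1 libraries; the whole count was 461 without the block and 1296 without those libraries.

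**Figure D5:**
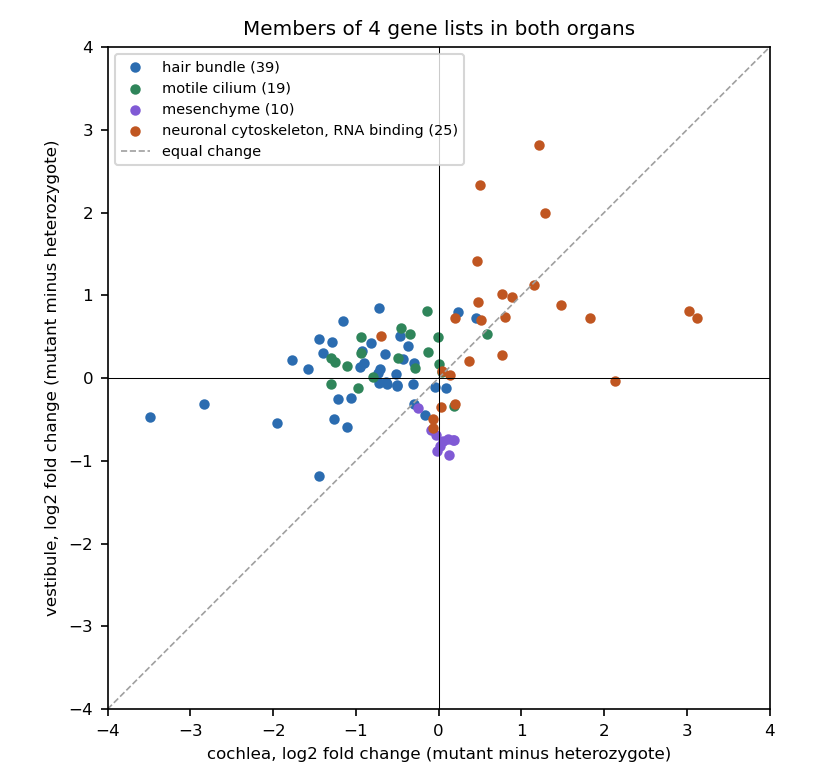
Log2 fold change (mutant minus heterozygote) in the vestibule against that in the cochlea for members of 4 gene groups tested in both organs, with a dashed line of equal change. Hair bundle and motile cilium genes lie mostly left of and above the line, with cochlear medians of -0.72 and -0.46, mesenchymal genes lie below it near 0 on the cochlear axis, and neuronal genes lie on both sides of it.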

How the data were processed

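RNA on HA-tagged ribosomes was sequenced from 12 libraries, of which the 6 vestibular ones carry the comparison and the 6 cochlear ones enter the organ difference alone. The authors deposited CPM, read counts scaled to each library's total, per the file headers. Per the submitters' processing notes, TopHat and GRCm38 were used (versions not stated). The counting method, strand setting and gene models were, for these files, not given in the sources used here. Reads of a gene and its antisense partner may thus be mixed. All values (100%) were whole multiples of 1 read to within 1e-06, so that read counts were recovered from the deposited CPM. Coordinates are from GENCODE M21, which held 24703 of the 24726 identifiers; 8 symbols occurred more than once and were kept apart by identifier.

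Mutants and heterozygotes were compared with limma 3.58.1 (trend, R 4.3.3) on log2(CPM + 1) with the replicate number as a block, with calls at p under 0.05 after Benjamini-Hochberg adjustment over 15595 genes. Fold changes on this scale understate those of low genes. The block was part of the comparison as set, chosen with earlier results of these data known. Checked afterwards, same-numbered libraries deviated together, with correlations of 0.766, 0.508 and 0.599 against -0.640 to 0.318 for other pairs. Deviations were from the mean of each genotype, so that replicate 1 standing apart in itself pushes other pairs that include it below 0. Between replicates 2 and 3 the other pairs were at 0.318 and 0.220, a smaller contrast with 0.508 and 0.599. The labels give the numbers and do not say what they share. On simulated reads for the same 15595 genes, 97% of 100 genes changed 2-fold and 100% of 100 changed 4-fold were called, with 24 false calls. These false calls were a larger share of all calls than the 0.05 set as the limit. The changed genes were drawn from those with a mean of at least 5 CPM, and replicate effects were simulated as the block assumes. Changes in lower genes and the choice of block were thus not tested by it. Alternatives were pseudocounts of 0.25 and 4 CPM, no filter or 5 CPM, median-of-ratios and quantile scaling, no block, leaving out each replicate, and edgeR 4.0.16 (quasi-likelihood) and DESeq2 1.42.0 on the recovered reads. Figures were drawn with matplotlib 3.10.9.

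Named genes were Gfi1, the 15 largest rises and falls among called genes with the same sign in all 3 pairs, the 6 called genes with the most reads in each direction, the 5 largest organ differences in each direction, and up to 5 members by smallest p, or others where described, of 38 gene lists. Predicted genes and those sharing over 20% of exon bases were left out of the ranked picks. Some genes that these rules pick are not reported here, but stay in the fits and in the counts of each list. The members and lists were chosen with earlier results of these data known.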

Additional observations from a re-analysis of the deposited data

Results flagged for a closer look

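The items below are genes whose mutant change differed between the vestibule and the cochlea by the interaction test (limma, replicate block, 3 libraries per genotype and organ). Differences are vestibular minus cochlear log2 fold change; organ and library kit cannot be told apart.

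The 5 largest positive differences were in Gpr149 (4.23), Aqp6 (3.68), Pkhd1l1 (3.48), Erich5 (3.40) and Pkn3 (3.31). For Aqp6 the vestibular change of 4.89 was larger than the difference of 3.68, so its cochlear change was above 0 too. Pkhd1l1, a protein of the stereocilia coat, stood at 2.81, 2.94 and 4.15 CPM in heterozygotes and 7.44, 8.71 and 16 CPM in mutants of the vestibule (1.39), and in the cochlea went from 615, 323 and 510.3 CPM to 95.9, 91.6 and 147 CPM (-2.09). In Erich5 and Pkn3 the difference came with a cochlear fall of -3.87 and -3.22, beside vestibular values of -0.47 and 0.10.

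Large negative differences were in Sphkap (-3.77), Lypd1 (-3.08), Cdhr1 (-3.05) and Nov (-2.57). Sphkap and Cdhr1 rose in the cochlea (3.49 and 3.16) and did not pass the test in the vestibule (-0.28 and 0.11). Lypd1 fell in the vestibule, at 2.1, 3.86 and 4.12 CPM in heterozygotes and 0.158, 0.382 and 0.0819 CPM in mutants, and rose in the cochlea (1.25).

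Further genes, named above or members of the gene groups, were called higher in the mutant vestibule and lower in the mutant cochlea. Among hair bundle genes the differences were 1.91 in Adgrv1, 1.72 in Grxcr1, 1.70 in Myo3b, 1.58 in Pcdh15, 1.26 in Lhfpl5, 1.24 in Tprn, 0.98 in Myo6, 0.94 in Elmod1 and 0.75 in Triobp. Among motile cilium genes they were 1.54 in Hydin, 1.43 in Foxj1, 1.24 in Tekt1, 1.06 in Cfap54, 0.89 in Ccdc40 and 0.74 in Drc1. The Notch ligand genes Dll3, Dll4, Jag2 and Dll1 had differences of 2.52, 1.63, 1.38 and 1.29. Calcium handling genes were Pvalb (2.45), Atp2b3 (1.51) and Atp2a2 (0.59). The others were Rasd2 (2.46), Psat1 (2.45), the sodium channel gene Scn11a (2.11), Slc7a14 (1.73), Tnc (1.56), the transcription factor gene Barhl1 (1.44) and Anxa4 (1.3). In Hydin, Lhfpl5, Myo6, Triobp and Atp2a2 the difference was not called without the replicate block.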

How the results depend on the processing

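The replicate block, which pairs libraries of the same number, had the largest effect on the counts. Without the block 546 genes were called (376 higher and 170 lower), against 3634 with it, and 461 organ differences against 1955. Of 272 called genes named or in the gene lists, 180 were no longer called without the block, and 69 were not without a filter on low values, where the total was 2282 and the lower genes 1117, and the cause was not tested. Leaving out each replicate in turn gave 2738 to 3205 genes, 1251 to 1587 higher and 1487 to 1847 lower, and log2 fold changes of Gfi1 from -1.20 to -1.18. These fits had 1 residual degree of freedom. The main fit had 2, beside a median of 12.0 lent by the variance of all genes, so its p-values rest largely on variance shared across genes. Without the vestibular replicate 1 libraries 1296 organ differences were called. The erythroid gene Alas2 stood at -0.39, with 0.62 without replicate 1, -1.02 without replicate 2 and -0.77 without replicate 3, and the cause was not tested. The split of higher and lower genes turned with the scaling, 1900 and 1678 with median-of-ratios and 1755 and 1618 with quantile normalization, against 1637 and 1997. It was 1822 and 1518 with edgeR and 1750 and 1461 with DESeq2, which change scaling and model together. With 3 libraries per genotype, differences smaller than those called cannot be told from no difference.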

Other observations

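Groups of genes not described above were mostly without a call. Of 7 skeletal muscle genes, 6 did not reach the filter on low values, and Des, an intermediate filament gene, stood at 5.49, 7.47 and 6.26 CPM in heterozygotes and 15.1, 13.3 and 8.72 CPM in mutants (log2 fold change 0.83, SE 0.20, adjusted p = 0.0075 by limma), a call lost without the block and without replicate 1. Of 5 sex-linked genes limma, edgeR and DESeq2 each called 0, with 0 at an unadjusted p under 0.05. Among the 3634 called genes, 7 had a replicate 1 difference that went against those of replicates 2 and 3.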
